A study of Mus musculus with 9 samples.

Results

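The genes described here encode enzymes that cut the extracellular matrix and the inhibitors that hold them in check. They are the 9 genes *Mmp2*, *Mmp11*, *Mmp14*, *Mmp15*, *Timp1*, *Timp2*, *Timp3*, *Adamts1* and *Adamts9*, chosen by name and found by Entrez Gene identifier among the 25206 genes of the arrays. All 9 lay above the median of at least 1 array and were among the 14096 genes tested. The cells were pulmonary lymphatic endothelial cells (PLECs) of C57BL/6N mouse fetuses, sorted as CD45-/Epcam-/CD31+/Vegfr3+/Lyve1+/Pdpn+ from collagenase-digested lungs at embryonic days E16.5 and E17.5, and at E18.5, shortly before birth. There were 3 samples per day and 9 in all. Each was a pool of lungs from 2 litters, and the fetuses were untreated animals of 1 strain with no reported genetic change. Values are log2 RMA values of Mouse Gene 2.0 ST arrays, and a difference of days is given as the mean at the later day minus the mean at the earlier day. A gene was called where the FDR *q* of limma, adjusted by Benjamini-Hochberg over all genes tested, was under 0.05.

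Matrix metalloproteinases (MMPs) are zinc-dependent enzymes that are made as inactive proenzymes and act on collagens, other matrix proteins and cell surface proteins, either after secretion or as membrane-bound (membrane-type) enzymes. Tissue inhibitors of metalloproteinases (TIMPs) bind the active site of these enzymes, and TIMP2 is also needed to bring the proenzyme of MMP2 to MMP14 at the cell surface, where it is activated. ADAMTS enzymes are secreted relatives with thrombospondin repeats, of which ADAMTS1 and ADAMTS9 cut the proteoglycan versican. Lymphatic vessels grow through interstitial matrix, and in the fetal lung they do so while the airspaces are still being formed.

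The markers for which the cells were sorted as positive were present at every day. *Pecam1*, which encodes CD31, lay between 10.98 and 11.42 over the 9 samples, *Lyve1* between 10.35 and 11.28 and *Flt4*, which encodes Vegfr3, between 7.90 and 8.62, all above the array medians of 3.79 to 3.91. *Pdpn*, the other lymphatic sort marker, was 6.81 to 7.69 at E18.5, against 5.46 to 5.95 at E16.5, and was called higher (2.75-fold, FDR *q* = 0.015, limma). *Epcam*, a marker that the sort excluded, lay between 4.56 and 6.07 and was above the array median on all 9 arrays. *Ptprc*, which encodes the other excluded marker, CD45, was above it on 1 array, E18.5 sample 1 (3.93). Neither was called at E18.5 against E16.5. *Prox1*, the lymphatic transcription factor, lay between 4.11 and 5.89, and *Emcn*, which marks blood endothelium, between 10.31 and 10.94. Of 8 blood endothelial markers tested, 1 was called higher at E18.5, *Car4* of alveolar capillaries (8.15 to 8.85, against 4.18 to 5.57 at E16.5), and 1 lower, *Plvap* (8.42 to 8.92, against 9.29 to 9.71 at E16.5). Markers of other lung cells were also on the arrays and moved with the day or with single samples. The mean of 13 tested fibroblast and interstitial markers lay at 6.39 to 6.98 at E16.5, at 6.40 to 6.85 at E17.5, and at 8.11, 7.72 and 6.75 in samples 1 to 3 of E18.5. The mean of 11 epithelial markers was 7.01 to 7.26 at E18.5, against 5.13 to 6.01 at E16.5, and that of 8 platelet markers was 7.74, 7.10 and 5.57 in samples 1 to 3 of E18.5, against 5.40 to 5.71 at E16.5. The mean of 3 tested mesothelial markers was 5.02 to 5.25 at E18.5, against 4.04 to 4.30 at E16.5. Of these lists, 2 of 13 fibroblast, 5 of 11 epithelial, 1 of 8 platelet and 1 of 3 mesothelial markers were called higher in the E18.5 against E16.5 comparison (3.77% of all genes tested), and 0 were called lower (6.21%). Among the pericyte and smooth muscle, leukocyte and erythroid markers tested, 0 were called in either direction. The part of these cells in the changes of the 9 genes was not tested. E17.5 sample 2 stood apart from the other 8 samples on the second principal component. In sorted bulk RNA, a change in the share of cells that carry a transcript and a change in its amount per cell cannot be told apart.

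At E18.5, 3 of the 9 genes were higher than at E16.5 and 0 were lower. They were the inhibitors *Timp3* and *Timp2* and the protease *Adamts1*, by 2.41-fold, 1.60-fold and 1.51-fold. Over all genes tested, 3.77% were called higher and 6.21% lower in this comparison, 9.98% in all. At an unadjusted p under 0.05 in the same limma fit, 4 of the 9 were higher and 0 lower, against 11.1% and 16.9% of all genes tested. None of the 4 MMP genes was called. The median change of the 9 genes was 0.35 on the log2 scale, against -0.04 over all genes tested, and 8 of the 9 changes were above 0. Every E18.5 sample lay above every E16.5 sample for 4 of the 9 genes, the 3 called and *Timp1*, where 11.9% of all genes tested were apart in this direction, and 0 of the 9 were apart in the other direction, where 18.3% were (30.2% in either). With each array centred on its median, *Timp1* overlapped and *Mmp15* was apart, lower at E18.5. Without E18.5 sample 3 the count of genes apart was 7, with *Mmp15* again lower. Fewer samples are apart more readily, and the share over all genes was not computed without that sample, so the 7 cannot be set against the shares above. Which genes were called rested on few samples: 0 of the 9 were called when any 1 sample of E16.5, or E18.5 sample 2, was left out. Calls over all genes fell in the same fits. Without E16.5 samples 1, 2 and 3 in turn, 248, 194 and 173 genes were called higher, against 532 with all samples. Without E18.5 sample 2, 256 were.

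**Figure D1:**
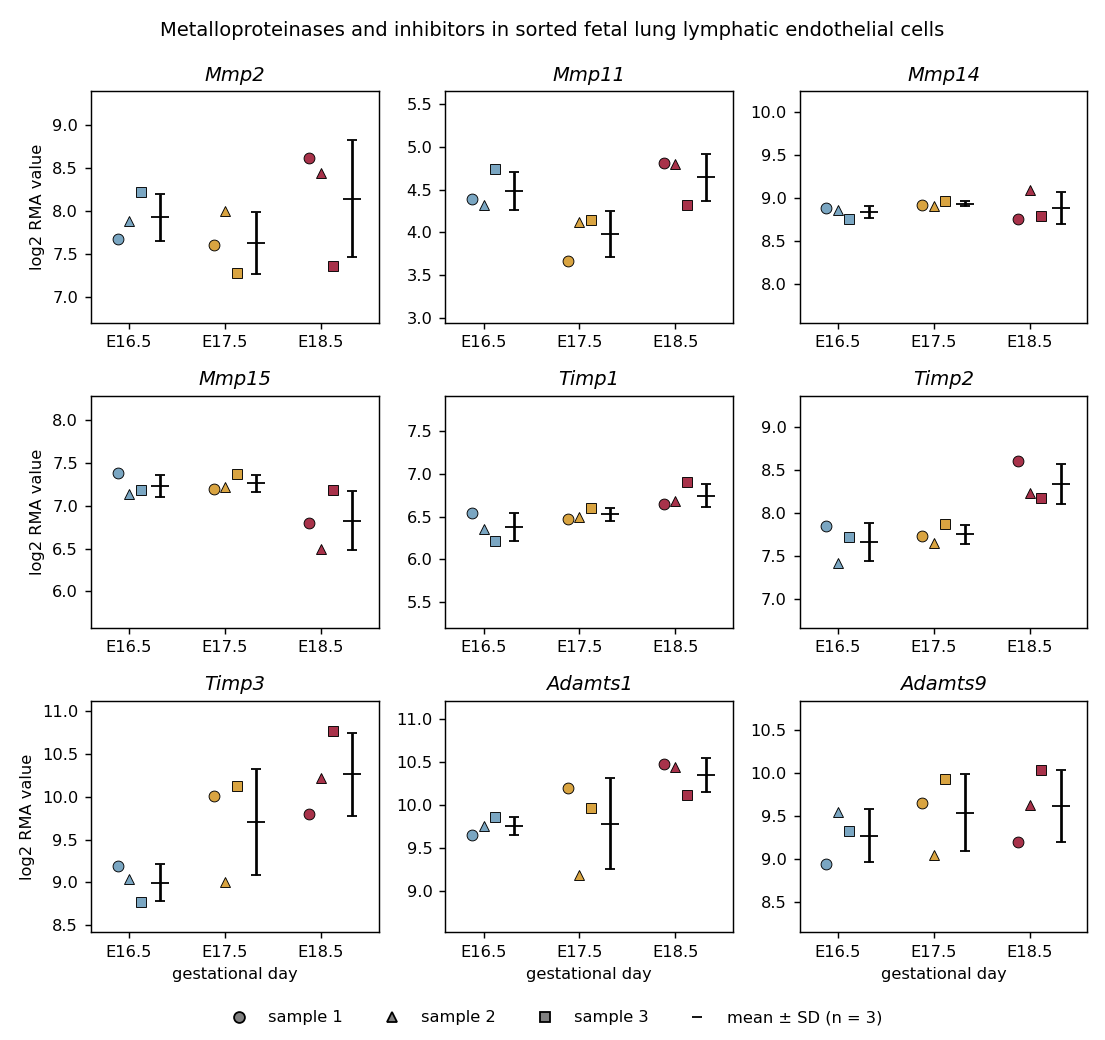
Log2 RMA values (y axis) of the 9 genes by embryonic day (x axis). Points are the 3 samples of each day, and bars are the mean and SD. The 3 E18.5 samples lie above all 3 E16.5 samples for *Timp1*, *Timp2*, *Timp3* and *Adamts1*.

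The promoters of the 3 called genes are shown because these genes were higher on the same day. The windows run from 250 bases before to 50 bases after the start of the gene in RefSeq (GRCm38.p6), and each is written in the direction of transcription. Capitals mark GC boxes, the letters GGGCGG on this strand or CCGCCC, which is the same motif on the other strand, and a GC box is the known binding motif of SP1-type factors. The windows are chr10:86300162-86300461 (plus strand) for *Timp3*, chr11:118355362-118355661 (minus strand) for *Timp2* and chr16:85803064-85803363 (minus strand) for *Adamts1*.
Timp3: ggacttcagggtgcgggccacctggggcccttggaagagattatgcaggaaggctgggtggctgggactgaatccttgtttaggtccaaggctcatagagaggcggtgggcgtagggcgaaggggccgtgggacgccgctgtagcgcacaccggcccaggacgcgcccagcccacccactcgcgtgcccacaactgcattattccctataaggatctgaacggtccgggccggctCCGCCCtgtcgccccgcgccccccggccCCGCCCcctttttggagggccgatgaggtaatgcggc
Timp2: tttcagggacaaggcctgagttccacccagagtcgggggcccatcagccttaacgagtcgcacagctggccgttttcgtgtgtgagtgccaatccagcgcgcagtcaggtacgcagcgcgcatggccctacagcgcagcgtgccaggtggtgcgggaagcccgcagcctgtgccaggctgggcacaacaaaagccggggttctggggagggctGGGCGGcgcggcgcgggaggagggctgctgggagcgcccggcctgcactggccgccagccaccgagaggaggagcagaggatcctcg
Adamts1: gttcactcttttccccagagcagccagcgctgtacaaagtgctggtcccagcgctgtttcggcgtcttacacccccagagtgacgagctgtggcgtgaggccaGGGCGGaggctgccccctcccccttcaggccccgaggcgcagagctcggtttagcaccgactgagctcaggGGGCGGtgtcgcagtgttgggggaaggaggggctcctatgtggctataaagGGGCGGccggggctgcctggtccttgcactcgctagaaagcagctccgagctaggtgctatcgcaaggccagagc
The *Timp3* window holds 2 GC boxes, the *Timp2* window 1 and the *Adamts1* window 3. A promoter was matched for 8 of the 9 genes, all but *Mmp2*, and all 8 windows hold at least 1 GC box, so those of the genes that were not called hold it too. Of 32851 RefSeq promoter windows of the same length, 35.7% hold it. G and C make up 55.0 to 70.0% of the letters in the 8 windows. The share of windows with a GC box was not computed for the genes tested or for windows of like content, so no excess is read from this. The letters TATAAA, known as a TATA box, are in the *Adamts1* window alone of the 8, against 13.6% of all windows. The AP-1 letters TGAGTCA, found in 5.2% of all windows, and the interferon-stimulated response element (GAAA repeated after 2 bases of any kind), found in 3.44%, are in 0 of the 8. All 4 motifs were searched on both strands. These matches are descriptions of the letters in the windows, and no binding was measured.

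*Timp3* encodes the inhibitor that binds to the matrix and acts on ADAMTS enzymes and ADAM17 as well as on MMPs. It lies on chromosome 10 (start 86300412, end 86349505). *Timp3* read 9.19, 9.04 and 8.77 in the E16.5 samples, 10.01, 8.999 and 10.12 in the E17.5 samples, and 9.80, 10.22 and 10.77 in the E18.5 samples. The E18.5 samples all stood above the E16.5 samples, while at E17.5 samples 1 and 3 were at the level of E18.5 and sample 2 was at that of E16.5. *Timp3* was higher by 1.27 at E18.5, relative to E16.5 (SE 0.25, 95% confidence interval 0.68 to 1.85, FDR *q* = 0.025, limma), a change larger in size than that of 97.11% of the genes tested. The change was called under all 8 alternative settings of the processing (FDR *q* from 0.023 to 0.050 with limma), and missed the threshold when any 1 sample of E16.5, or E18.5 sample 2, was left out (up to *q* = 0.10).

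*Timp2* encodes the inhibitor that takes part in the activation of proMMP2. It lies on chromosome 11 (start 118301061, end 118355411). *Timp2* read 7.85, 7.41 and 7.72 in the E16.5 samples, 7.73, 7.64 and 7.87 in the E17.5 samples, and 8.61, 8.23 and 8.18 in the E18.5 samples. The samples of the first and the middle day overlapped, and all 3 E18.5 samples stood above the other 6. The difference of E18.5 and E16.5 was 0.68 (SE 0.17, 95% confidence interval 0.28 to 1.08, FDR *q* = 0.049, limma). It lay just inside the threshold, and when any 1 of the 6 samples of these days was left out it missed it (*q* up to 0.13), as it did without the filter on low values (*q* = 0.084), with centred arrays (*q* = 0.054) and with an intensity trend and robust eBayes (*q* = 0.062). *Timp2* was also the 1 gene of the 9 called over the 3 days together (moderated F test in limma, FDR *q* = 0.039), where 9.09% of all genes tested were called.

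*Timp1* encodes the secreted inhibitor that is induced in many tissues by cytokines. It lies on the X chromosome. *Timp1* read 6.55, 6.36 and 6.22 in the E16.5 samples, 6.47, 6.50 and 6.61 in the E17.5 samples, and 6.65, 6.68 and 6.90 in the E18.5 samples. The lowest E18.5 sample lay just above the highest E16.5 sample, and the days overlapped once each array was centred on its own median. *Timp1* differed by 0.37 at E18.5 against E16.5 (SE 0.13, 95% confidence interval 0.06 to 0.68), which did not pass the test (FDR *q* = 0.12, limma). For all 3 inhibitors the E18.5 samples thus lay above those of E16.5, with a call for 2 of them. The fourth gene of this family, *Timp4*, was below the array median on every array and was not tested.

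*Adamts1* encodes a secreted protease that cuts versican and aggrecan. It lies on chromosome 16 (start 85793827, end 85803113). *Adamts1* read 9.65, 9.75 and 9.86 in the E16.5 samples, 10.19, 9.18 and 9.97 in the E17.5 samples, and 10.47, 10.44 and 10.12 in the E18.5 samples. The E18.5 samples stood above those of E16.5. Of the E17.5 samples, sample 2 lay below the E16.5 range, sample 3 between the ranges of the 2 other days, and sample 1 within that of E18.5. The difference of E18.5 and E16.5 was 0.59 (SE 0.13, 95% confidence interval 0.28 to 0.91, FDR *q* = 0.038, limma). It was not called in the fit over all 9 arrays (*q* = 0.12), which includes the spread of E17.5, nor with the sample number as a block (*q* = 0.073), without the filter on low values (*q* = 0.066) or with an intensity trend and robust eBayes (*q* = 0.053). Leaving out E18.5 sample 3 kept the call (*q* = 0.025), and leaving out any other 1 of the 6 samples lost it (*q* up to 0.12).

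*Adamts9* encodes a protease of the same family that also cuts versican. It lies on chromosome 6. *Adamts9* read 8.94, 9.55 and 9.32 in the E16.5 samples, 9.65, 9.04 and 9.93 in the E17.5 samples, and 9.20, 9.63 and 10.04 in the E18.5 samples. The days overlapped throughout. At E18.5 *Adamts9* differed from E16.5 by 0.35 (SE 0.24, 95% confidence interval -0.23 to 0.93, FDR *q* = 0.38, limma), so the interval holds both no change and changes as large as that of *Adamts1*.

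**Figure D2:**
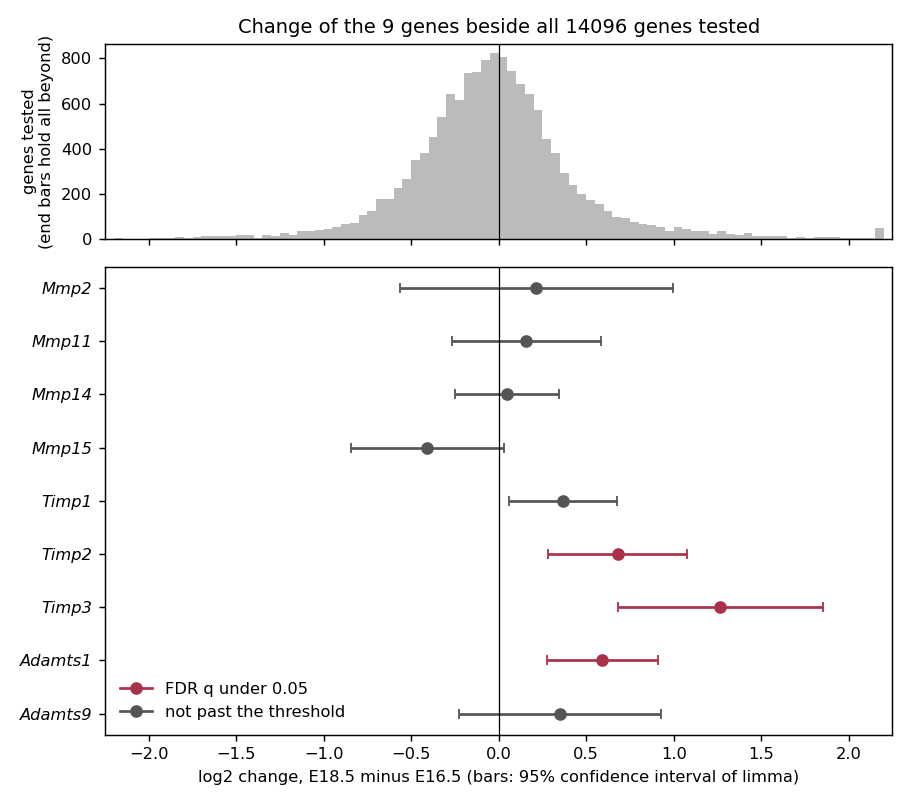
Change of each of the 9 genes at E18.5 against E16.5 (lower plot, x axis in log2 units, points with 95% confidence intervals, red where called and grey where not), under the distribution of the change over the 14096 genes tested (upper plot, y axis in genes, with the end bars holding all genes beyond). *Timp3* (1.27), *Timp2* (0.68) and *Adamts1* (0.59) are past the threshold, and *Mmp15* is the gene with a change below 0.

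The MMP genes had no call in this comparison. *Mmp14* (chromosome 14) encodes the membrane-type enzyme that activates proMMP2 and cuts fibrillar collagen. *Mmp14* read 8.88, 8.86 and 8.75 in the E16.5 samples, 8.92, 8.91 and 8.97 in the E17.5 samples, and 8.76, 9.09 and 8.79 in the E18.5 samples. All 9 samples lay within a narrow range. The E17.5 samples stood above those of E16.5, and those of E18.5 overlapped both other days and held the highest value, in sample 2. Between E18.5 and E16.5 *Mmp14* differed by 0.05 (SE 0.13, 95% confidence interval -0.25 to 0.34, FDR *q* = 0.83, limma), and its sign turned when each array was centred on its median (-0.03).

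*Mmp2* (chromosome 8) encodes gelatinase A, which cuts denatured collagen and type IV collagen. *Mmp2* read 7.68, 7.89 and 8.22 in the E16.5 samples, 7.61, 8.001 and 7.28 in the E17.5 samples, and 8.62, 8.45 and 7.36 in the E18.5 samples. Samples 1 and 2 of E18.5 stood above all others, and sample 3 stood below every E16.5 sample. *Mmp2* differed by 0.22 at E18.5 against E16.5 (SE 0.33, 95% confidence interval -0.57 to 1.00, FDR *q* = 0.70, limma). It had the widest interval of the 9 genes, was 0.61 without E18.5 sample 3 (*q* = 0.10) and turned to -0.02 without E18.5 sample 1.

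Within each day, the 3 samples took the same order in *Mmp2* as in the mean of the fibroblast markers, and also as in the mean of the pericyte and smooth muscle markers. These marker means shared the same order on each day, so a match with either was a match with both. At E18.5 the pericyte and smooth muscle mean read 6.10, 5.91 and 5.49 in samples 1 to 3. *Timp3* took the reverse of the order shared by both lists on each of the 3 days, and was highest in E18.5 sample 3, where the fibroblast mean of that day was lowest. *Timp2* was in the fibroblast order at E18.5, with its highest value in sample 1, and in the reverse of that order at E17.5. Of 90 pairs of 1 of the 9 genes and 1 of 10 marker lists, 3 had the same order and 2 the reverse order on all 3 days. Among these are the pairs of *Mmp2* and of *Timp3* with both of the lists above, which are not separate observations. The remaining pair was *Adamts1* and the mean of 5 tested leukocyte markers, which read 4.95, 3.75 and 3.57 in samples 1 to 3 of E18.5, against 3.44 to 4.01 at E16.5. None of these 5 markers was called between these days. The fibroblast markers *Col1a1*, *Col3a1* and *Mfap4* were above the array medians at every day. Of the same list, *Dcn* fell below the array median in E18.5 sample 3 (3.36), and *Lum* was below it on every array and was not tested.

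*Mmp15* (chromosome 8) encodes another membrane-type enzyme. *Mmp15* read 7.38, 7.14 and 7.18 in the E16.5 samples, 7.19, 7.22 and 7.37 in the E17.5 samples, and 6.80, 6.49 and 7.18 in the E18.5 samples. Samples 1 and 2 of E18.5 were the lowest of the 9 samples and sample 3 lay within the other days. *Mmp15* differed by -0.41 at E18.5 against E16.5 (SE 0.18, 95% confidence interval -0.84 to 0.03, FDR *q* = 0.20, limma). It was the only change below 0 among the 9 genes, and it was -0.59 without E18.5 sample 3 (*q* = 0.068).

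*Mmp11* (chromosome 10) encodes stromelysin 3, which furin activates inside the cell before secretion. *Mmp11* read 4.39, 4.32 and 4.74 in the E16.5 samples, 3.67, 4.12 and 4.14 in the E17.5 samples, and 4.81, 4.79 and 4.32 in the E18.5 samples. The E17.5 samples were the lowest of the 9, and E16.5 and E18.5 overlapped. These values are close to the array medians, and 1 array read it below its median, so its signal was close to background. The difference of E18.5 and E16.5 was 0.16 (SE 0.18, 95% confidence interval -0.27 to 0.58, FDR *q* = 0.59, limma).

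The middle day was used to see in which interval the genes moved. At E17.5 against E16.5, 0 of the 9 were called, against 0.149% of all genes tested, and at E18.5 against E17.5 0 of the 9 were called, against 1.89% (limma, all 9 arrays). At an unadjusted p under 0.05 these counts were 2 of the 9 in the earlier interval, where 14.7% of all genes tested passed, and 4 of the 9 in the later one, where 17.6% passed. *Timp2* had a difference of 0.09 at E17.5 against E16.5 (*q* = 0.82) and of 0.59 at E18.5 against E17.5 (*q* = 0.091), and *Timp3* of 0.71 (*q* = 0.33) and 0.55 (*q* = 0.39). *Adamts1* differed by 0.03 at E17.5 against E16.5 (*q* = 0.97) and by 0.57 at E18.5 against E17.5 (*q* = 0.24). A direct test of the later against the earlier difference called 0 of the 9 genes and 0 of all genes tested (limma; 1 of the 9 and 8.11% of all genes had an unadjusted p under 0.05), so the intervals were not shown to differ for any gene. The lowest p in this test belonged to *Mmp11*, whose difference was -0.50 in the earlier interval and 0.66 in the later one (FDR *q* = 0.49, limma). Without E18.5 sample 3, *Mmp11* was higher by 0.82 (*q* = 0.042) and *Mmp15* lower by 0.62 (*q* = 0.046) at E18.5 than at E17.5, and these were the 2 calls among the 9 genes. With any other sample left out, 0 of the 9 were called in this interval. The share over all genes called without E18.5 sample 3 was not computed.

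E17.5 sample 2 divided the genes. *Timp3* read 1.07 lower in it than the mean of the other E17.5 samples, *Adamts1* 0.90 lower and *Adamts9* 0.75 lower, and it was the lowest E17.5 sample for all 3. *Timp2* and *Mmp14* were also lowest in it, by 0.16 and 0.04 under that mean. The mean of 7 lymphatic markers was also lowest in that sample, at 6.79 against 7.27 and 7.38 in samples 1 and 3, and *Prox1* read 4.11 in it, its lowest value of the 9 samples. The means of the blood endothelial (8.73, against 9.05 and 9.03 in samples 1 and 3), mesothelial and leukocyte markers were lowest in it too. Those of the fibroblast, pericyte and smooth muscle, platelet and erythroid markers were highest in it. The part of these differences in the genes was not tested. *Mmp2* was highest in that sample of the day, by 0.56 over the mean of the other E17.5 samples. Without it, *Timp3* was the 1 gene of the 9 called over the 3 days, in the place of *Timp2*.

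**Figure D3:**
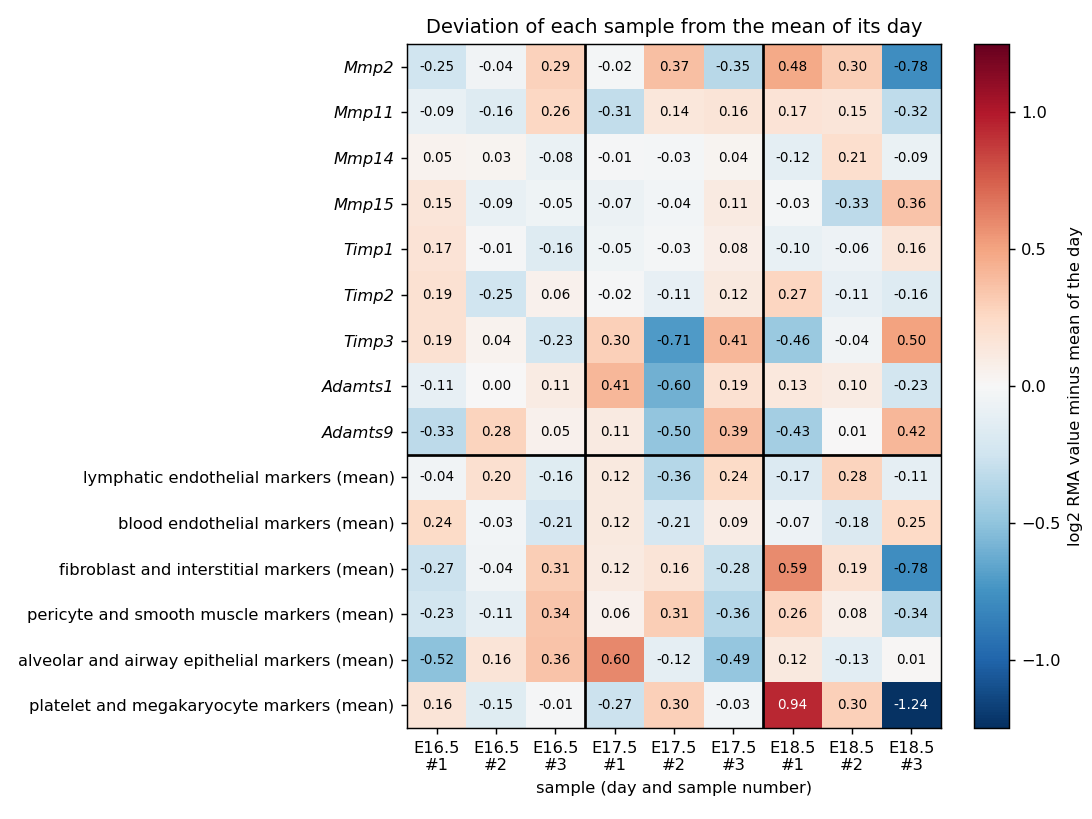
Deviation of each sample (columns, by day and sample number) from the mean of its day in log2 units (colour and printed values), for the 9 genes and for the means of 6 lists of cell markers (rows). *Mmp2* and the fibroblast mean are lowest in E18.5 sample 3, and *Timp3*, *Adamts1* and *Adamts9* are lowest in E17.5 sample 2.

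The genes with patterns most like those of the called genes were found as those with the smallest root mean square difference over the 9 samples, each gene being taken as the deviation from its own mean. For *Timp2* they were *Cd9*, a tetraspanin of the cell surface (0.056), *Fcgrt*, the neonatal Fc receptor (0.092), and *Prr13* (0.098). For *Timp3* they were *Tnfaip3*, an inhibitor of NF-kB signaling (0.14), *Scn3b*, a sodium channel subunit (0.17), and *Parp9* (0.17). For *Adamts1* they were *Maf*, a transcription factor (0.12), *Adgrg6*, an adhesion G protein-coupled receptor (0.13), and *Ptpn2*, a tyrosine phosphatase (0.13). *Cd9* read 8.05, 7.65 and 7.93 at E16.5, 8.05, 7.90 and 8.05 at E17.5, and 8.90, 8.59 and 8.39 at E18.5, with the lowest E18.5 sample above the other 6 samples, as for *Timp2*. *Tnfaip3* read 7.80, 6.71 and 7.87 at E17.5, with the same low sample 2 as *Timp3*. These are likenesses over samples that share 3 days and the same sorts.

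The other genes of the pathway were taken from 8 lists. Beside the counts of each list stand the shares over all genes tested at E18.5 against E16.5, 3.77% called higher and 6.21% lower. Of 19 other MMP genes, 12 were below the array median on every array, among them *Mmp9*, which encodes gelatinase B, and 0 of the 7 tested were called in either direction. At an unadjusted p under 0.05 in the same limma fit, 2 lay higher and 2 lower, where 11.1% and 16.9% of all genes tested did. Without E18.5 sample 3, 1 was called higher. *Mmp19* read 7.17, 7.44 and 5.91 in the E18.5 samples, against 5.38, 5.57 and 5.97 in the E16.5 samples. Samples 1 and 2 of E18.5 stood above and sample 3 within the E16.5 range, and the difference of 1.20 missed the threshold (FDR *q* = 0.10, limma). *Mmp16*, a membrane-type enzyme, differed by -0.39 (*q* = 0.15).

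Among 10 other ADAMTS genes tested of 17 listed, 4 were higher and 0 lower at E18.5 against E16.5, where 3.77% and 6.21% of all genes tested were. The median change of the list was 0.55. *Adamts17* read 8.10, 7.94 and 6.80 in the E18.5 samples, against 5.66, 6.25 and 6.14 in the E16.5 samples, and was higher by 1.60 (FDR *q* = 0.035, limma). *Adamts4*, which encodes an aggrecan- and versican-cutting enzyme, read 7.47, 8.21 and 8.35 in the E18.5 samples, against 6.52, 6.57 and 6.70 in the E16.5 samples, and was higher by 1.41 (*q* = 0.014). *Adamts2*, which encodes a procollagen N-proteinase, was higher by 1.08 (*q* = 0.049), just inside the threshold. The *Adamts2* call was lost without the filter, with the sample number as a block, and with an intensity trend and robust eBayes. It was also lost without any 1 of the E16.5 samples or without E18.5 sample 1 or 2. *Adamts15* was above the array median on 2 arrays, both of E18.5, so it entered the test only through the day on which it was high, and with the filter at 3 arrays the count of this list was 3. In *Adamts17* and *Adamts2*, E18.5 sample 3 was the lowest of its day, as it was for the fibroblast mean, and in *Adamts4* it was the highest. *Adamts3*, which encodes the protease that processes VEGF-C, the ligand of Vegfr3, was chosen after its values were seen: it read 3.53, 3.64 and 3.33 in the E18.5 samples, against 3.57, 3.86 and 4.20 in the E16.5 samples, near or below the array medians, and was not called (*q* = 0.22).

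Of 6 tested ADAMTS-like genes, which encode relatives without a protease domain, 2 were higher at E18.5 and 0 lower. *Adamtsl2* was higher by 1.86 (FDR *q* = 0.014, limma), with 7.97, 7.19 and 6.98 in the E18.5 samples, against 5.67, 5.04 and 5.84 in the E16.5 samples, and *Adamtsl4* was higher by 0.86 (*q* = 0.030). The E18.5 samples of both genes lay above all E16.5 samples. Of 7 tested genes of the ADAM family, membrane-bound enzymes that shed surface proteins, *Adam9* alone was called, higher by 0.72 (*q* = 0.047), and the median of the list was -0.10. This call was lost without the filter, with centred arrays, with an intensity trend and robust eBayes, in the fit on all 9 arrays, and without any 1 of the 6 samples of these days except E18.5 sample 1. The calls of the ADAMTS lists also rested on few samples: 0 of the other ADAMTS genes and 0 of the ADAMTS-like genes were called without E16.5 sample 1 or without E16.5 sample 2. The count of other ADAMTS genes was 1 without E16.5 sample 3 or E18.5 sample 2. It was 2 without E18.5 sample 1 or without the filter. Calls over all genes fell in these fits too, with 173 to 357 genes higher, against 532.

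In the list of other protease inhibitors, 2 of 6 tested genes were called, both higher at E18.5, with a median change of 1.01. The list was drawn up by gene family, and inhibition was not measured for any of its genes. *Spock2*, which encodes a testican proteoglycan and was listed with its family, is not counted here as an inhibitor of MMPs. It was higher by 1.54 (FDR *q* = 0.003, limma), with 5.68, 5.52 and 5.87 in the E18.5 samples, against 4.17, 4.01 and 4.27 in the E16.5 samples. Every E18.5 sample of *Spock2* stood above every E16.5 sample. Of 9 tested activators and inducers of MMPs, *Plat*, which encodes tissue plasminogen activator, was higher by 0.68 (*q* = 0.019) and 0 were lower. The median change of the list was -0.14, with 6 of the 9 changes below 0. The higher count was 0 without any 1 of the E16.5 samples or E18.5 sample 2. *Plg*, the plasminogen gene, was below the array median on every array and was not tested. *Furin*, named after its values were seen, differed by 0.36 (*q* = 0.16).

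Among 11 binding and clearance partners of these proteins, 1 was higher and 1 lower at E18.5. *Itga3*, a subunit of an integrin that binds TIMP2, was higher by 0.90 (FDR *q* = 0.048, limma), and *Fbln1*, which encodes fibulin 1, a cofactor of ADAMTS1, was lower with a change of -1.02 (*q* = 0.031). The higher count was 0 without any 1 of the 6 samples of these days, and the lower count was 0 without any 1 of the E16.5 samples or E18.5 sample 2. Both were 0 with the sample number as a block and without the filter on low values, and the higher count was also 0 with centred arrays and with an intensity trend and robust eBayes, and 2 in the fit on all 9 arrays. Of 15 tested matrix substrates, 1 was higher and 2 were lower. The higher count was 0 without any 1 of the E16.5 samples or without E18.5 sample 1 or 2, and 3 without E18.5 sample 3, and the lower count was 3 without E16.5 sample 1 and 1 without E16.5 sample 2 or 3 or E18.5 sample 1 or 2. *Fn1*, which encodes fibronectin, was higher by 1.60 (*q* = 0.019), *Fbn2*, which encodes fibrillin 2, was lower with a change of -1.97 (*q* = 0.006), and *Hspg2*, which encodes the basement membrane proteoglycan perlecan, was lower with a change of -0.77 (*q* = 0.017). *Hspg2* read 8.44, 8.24 and 8.52 in the E18.5 samples, against 9.05, 9.37 and 9.10 in the E16.5 samples, and these ranges did not overlap. *Vcan*, the versican gene, was named after its values were seen: it read 6.10, 6.26 and 5.42 in the E18.5 samples, against 6.19, 7.59 and 7.33 in the E16.5 samples, and its change of -1.11 did not pass the test (*q* = 0.12).

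**Figure D4:**
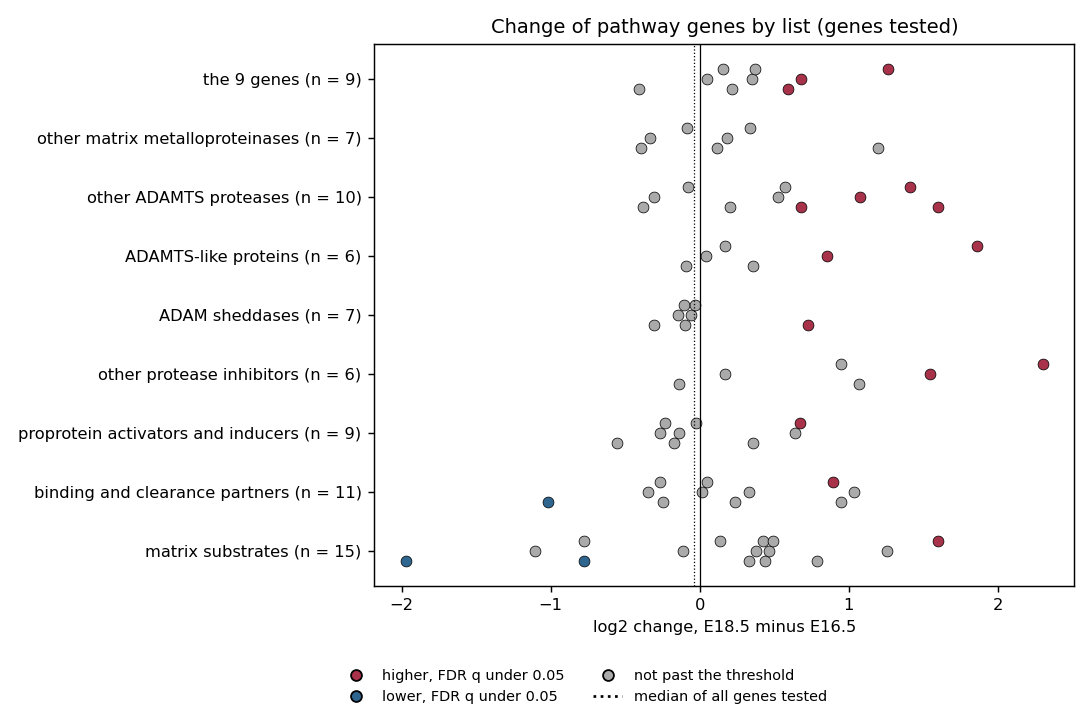
Change at E18.5 against E16.5 in log2 units (x axis) of each tested gene of the 9 genes and of the 8 lists (rows), with a dotted line at the median of all genes tested (-0.04). Filled red points are genes called higher and blue points genes called lower, and other points did not pass the threshold.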

How the data were processed

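Total RNA of the sorted cells was measured on Mouse Gene 2.0 ST arrays, 1 array per sample and 3 samples per day. The log2 values were deposited by the authors as gene-level RMA values (background-corrected, quantile-normalized and summarized per Entrez Gene), and the submitters' processing notes name affy 1.36.1 and R 2.15.1. Quantile normalization sets the arrays to 1 distribution, so a shift shared by most genes would be removed. Arrays give no counts, and their number limits the precision. The raw intensities were not used here.

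Genes above the median of at least 1 array entered the fits, which were made in limma 3.58.1 (R 4.3.3). E18.5 was set against E16.5 in a fit of those 6 arrays, following the degrees of freedom of the study, and the 3 days and both intervals in a fit of all 9. The Benjamini-Hochberg adjustment that gives FDR *q* ran over 14096 genes. The p-values measure the spread between pooled samples. Symbols were taken from RefSeq for 23740 of the 25206 genes, and 1466 had none.

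The 9 genes, the lists and the rule for naming genes (the 9 genes, up to 6 called genes per list or 2 where none was called, the 3 nearest patterns of each called gene, and the sort markers) were chosen with earlier results of these data known. A gene that the rule names is not reported here. Results were recomputed with array quality weights, with an intensity trend and robust eBayes, with the sample number as a replicate block, with each array centred on its median or all quantile-normalized again, with the filter dropped or set at 3 arrays, with all 9 arrays in the fit, and without each sample in turn.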

Additional observations from a re-analysis of the deposited data

How the results depend on the processing

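The number of the 9 genes called higher at E18.5, against E16.5, was 3, against 1 (*Timp3*) without the filter on low values and 1 (*Timp3*) with an intensity trend and robust eBayes, and 0 to 3 when 1 sample was left out. It was 0 without E16.5 sample 1, 2 or 3 and without E18.5 sample 2, and 1 without E18.5 sample 1. Calls over all genes fell in these fits as well, with 173 to 319 genes higher, against 532. No gene of the 9 was called lower under any of these. Over the 3 days the count was 1, against 0 without the filter and 2 (*Timp2* and *Timp3*) with array quality weights, and 0 to 3 with 1 sample left out, the 3 being *Mmp11*, *Mmp15* and *Timp2* without E18.5 sample 3. At E18.5 against E17.5 the count was 0, and 0 to 2 with 1 sample left out. The count of genes whose samples were apart was 4, and 4 to 7 with 1 sample left out, the 7 being without E18.5 sample 3, when *Mmp2*, *Mmp11* and, lower at E18.5, *Mmp15* joined them. Fewer samples are apart more readily, and the share of all genes apart was not computed with 1 sample left out. With 1 sample left out, a day of 2 samples shares its estimate of spread with the other days.

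Of 126 alternatives over the changes of the 9 genes, 101 kept the direction and the side of the threshold, 22 missed the threshold and 3 turned in sign. The 22 were all of the 3 called genes, 9 for *Timp2*, 4 for *Timp3* and 9 for *Adamts1*, out of 14 alternatives for each. The genes not called kept their side by staying uncalled. With 1 sample left out, *Mmp2* ranged from -0.022 (without E18.5 sample 1) to 0.61 and *Mmp14* from -0.058 (without E18.5 sample 2) to 0.11, and *Mmp14* was -0.032 with centred arrays. The sample numbers pair the samples by nothing in the labels, and 2 of 9 pairs with the same number correlated over 0.1 (range -0.273 to 0.219). With the number as a replicate block, 2 of the 9 genes (*Timp2* and *Timp3*) were called higher, 0 lower and 1 over the 3 days. Over all genes, 532 were called higher and 875 lower (37.8% higher), against 491 and 1337 with centred arrays (26.9%), 357 and 532 without the filter, and 173 to 580 higher and 217 to 877 lower with 1 sample left out. The causes of these differences were not tested.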
